A study of Mus musculus with 8 samples.

Results

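The genes described here encode adaptors that bring the CCR4-NOT deadenylase to mRNAs, the BTG and TOB proteins and the zinc finger proteins ZFP36L1 and ZFP36L2, together with the terminal uridylyltransferases TUT4 and TUT7. They were chosen by name, for the known roles of their products, with earlier results of these data known. They are Btg1, Btg2, Btg3, Btg4, Tob1, Tob2, Zfp36l1, Zfp36l2, Zcchc11 (TUT4) and Zcchc6 (TUT7), 10 of the 23235 gene symbols with a value. RNA was sequenced from spermatocytes that were sorted from mouse testes by DNA staining into leptotene and zygotene cells (LZ) and pachytene and diplotene cells (PD). The groups were WT LZ, Cnot4-null LZ, WT PD and Cnot4-null PD, with 2 libraries in each, described as biological duplicates from mice 6 weeks of age on a C57BL/6 background. Cnot4-null animals were Cnot4 fl/fl and carried Cre under the Stra8 promoter, which is active in male germ cells around the entry into meiosis, so that Cnot4 is deleted in germ cells and not in the somatic cells of the testis. The comparisons ask how the RNA level of each adaptor differs between the stages and whether that difference depends on Cnot4, which encodes a RING-type ubiquitin ligase that associates with CCR4-NOT.

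CCR4-NOT shortens the poly(A) tail of mRNAs, and a short tail is a starting point for decay. BTG and TOB proteins share an N-terminal domain that binds the catalytic subunits CNOT7 and CNOT8, and TOB proteins also bind poly(A)-binding protein. ZFP36L1 and ZFP36L2 bind AU-rich elements in mRNAs and recruit the complex to them, while TUT4 and TUT7 add uridines to RNAs with short tails and so mark them for degradation, in germ cells as well as in other cells.

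The values are FPKM, fragments scaled by transcript length and by mapped fragments, so levels of different genes can be set side by side. The files hold no read counts. The depth of each library relative to WT LZ replicate 1 was taken from genes of low value, by the FPKM that a single fragment is worth. For the second WT library of LZ it was 1.06, for those of Cnot4-null 0.935 and 1.06, and at PD it was 1.21 and 1.33 in WT against 1.00 and 0.823 in Cnot4-null. The last rests on 117 of the 1387 genes compared, and these estimates do not follow the read totals listed with the study, so they are not taken as numbers of sequenced reads. Genes above 1 FPKM numbered 10103 and 10076 in the WT PD libraries and 13887 and 14249 in those of Cnot4-null PD. Cnot4 itself was listed at 36.0 and 34.9 FPKM in WT and 43.2 and 34.6 in Cnot4-null at LZ, and 76.6 and 73.1 in WT and 65.9 and 53.5 in Cnot4-null at PD. The allele removes exon 2, and a single value per gene does not show the loss of an exon, so these levels do not test the genotype.

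Markers of other testis cells separated the Cnot4-null PD libraries from the rest. The 8 Leydig cell markers, led by Insl3, a hormone gene of these interstitial cells, summed to 10082 and 22306 FPKM there. They summed to 116 and 7.07 FPKM in WT PD, and the LZ libraries lay between 9.89 and 19.0. All 8 were above 1 FPKM in both Cnot4-null PD libraries. In WT PD replicate 2, 5 of them were listed at 0, Cyp11a1 and Cyp17a1 among them. Peritubular myoid cell markers summed to 101 and 321 FPKM in Cnot4-null PD, where the smooth muscle actin gene Acta2 was the most abundant, and to between 2.94 and 15.5 in the other 6 libraries. The 9 macrophage markers summed to 46.7 and 208 FPKM in Cnot4-null PD, with Cd74 the most abundant, and to 42.9, 1.29, 25.2, 2.53, 3.08 and 1.92 in the WT LZ, Cnot4-null LZ and WT PD libraries in that order. Of these markers, the complement genes C1qa and C1qc had a value of 0 in each of the WT PD libraries.

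Sertoli cell markers were distributed differently. Their 11 measured genes summed to 175 and 164 FPKM in WT and 22.0 and 21.3 in Cnot4-null at LZ, and 21.3 and 59.0 in WT and 131 and 229 in Cnot4-null at PD. The secreted chaperone gene Clu was the most abundant in Cnot4-null PD, at 94.6 and 196 FPKM, whereas Amh was listed at 0 in 7 libraries and at 0.129 FPKM in Cnot4-null PD replicate 2, and Fshr at 0 in 7 libraries and at 0.154 FPKM in Cnot4-null LZ replicate 1. Endothelial markers summed to at most 7.51 FPKM, in Cnot4-null PD replicate 2, where Cdh5 was the most abundant. Of the red blood cell markers, the 4 globin genes were listed at 0 in every library, and Alas2 reached 0.936 FPKM at most.

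Germ cell markers were read against the stage labels. The 10 PD spermatocyte markers, with the germ cell lactate dehydrogenase gene Ldhc the most abundant in the PD libraries, summed to 13021 and 12131 FPKM in WT PD, 5893 and 2090 in Cnot4-null PD and between 129 and 387 at LZ. Spermatid markers summed to 16138 and 7318 FPKM in Cnot4-null PD, where the protamine gene Prm1 was the most abundant, to 451 and 293 in WT PD, and to 739 up to 4100 in the LZ libraries. Spermatogonia markers summed to 360 and 468 FPKM in Cnot4-null PD, with the deubiquitinase gene Uchl1 the most abundant, and to 68.9 and 83.8 in WT PD. The LZ libraries had 472 to 729 FPKM. LZ spermatocyte markers, led by the synaptonemal complex gene Sycp3, summed at LZ to 1371 and 1677 FPKM in WT and 3045 and 1704 in Cnot4-null, and at PD to 1321 and 1345 in WT and 1011 and 618 in Cnot4-null. The genes of this list went both ways at PD, 4 of 9 higher in Cnot4-null and 4 lower (41.6% and 11.5% of all genes), with a median FPKM of 8.70 and 6.47 in WT against 56.6 and 35.2 in Cnot4-null. Stra8, an early meiotic gene, was at 8.70 and 6.47 FPKM in WT PD but reached 228 and 149 FPKM in the libraries of Cnot4-null PD. The PD markers were thus highest in WT PD, and the libraries labelled Cnot4-null PD held RNA of Leydig, myoid and spermatid genes at levels not reached in WT PD. Their part in the results at PD was not tested. The paper reports that staining of the sorted cells for SYCP3 and pH2AX showed their identity and purity. In bulk samples, a change in the number of cells of a type and a change in RNA per cell cannot be told apart.

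**Figure D1:**
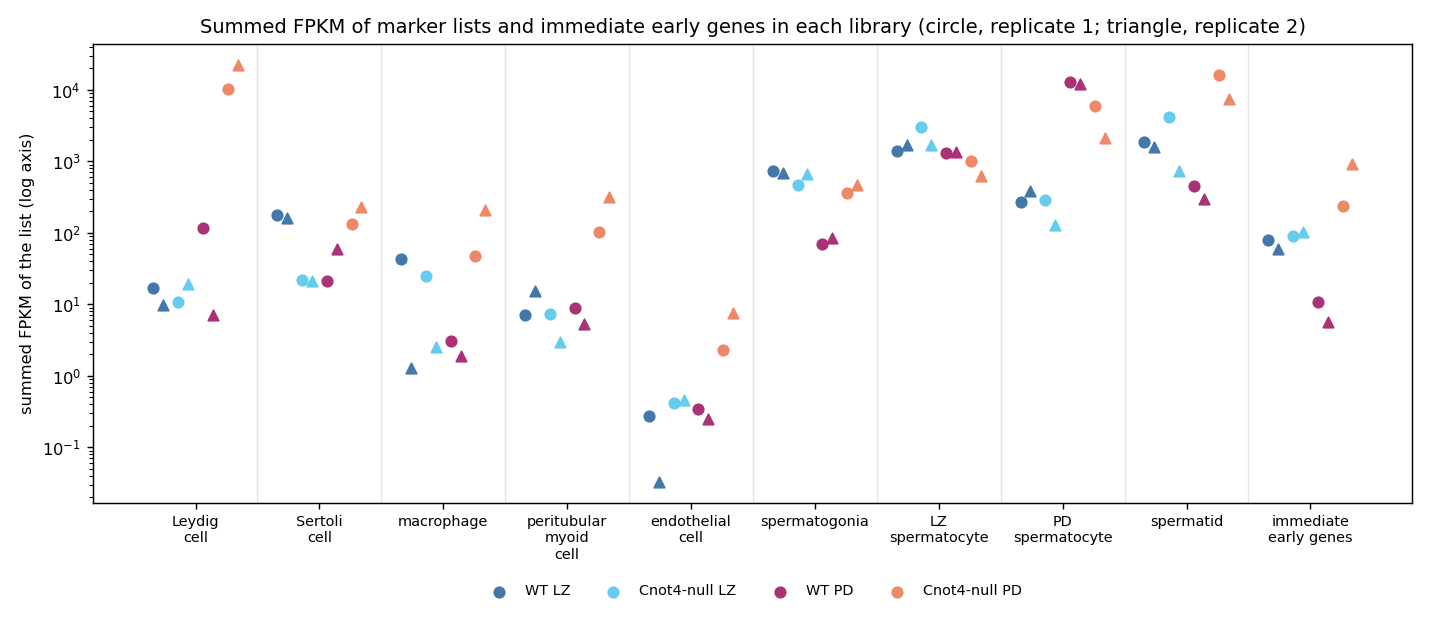
Summed FPKM (log axis) of 9 cell type marker lists and the immediate early genes in each of the 8 libraries. The Leydig cell list lies at 10082 and 22306 FPKM in Cnot4-null PD and at or below 116 FPKM in the other libraries.

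The order of the 10 genes changed with stage (FPKM, mean of 2 libraries). In WT LZ, Zcchc11 was the highest at 40.6 ± 0.225 FPKM (SD, n = 2), followed by Zfp36l2 at 35.5, Tob1 at 31.5, Zfp36l1 at 24.0, Btg1 at 17.9, Btg2 at 16.3, Tob2 at 13.4, Zcchc6 at 5.83, Btg4 at 1.33 and Btg3 at 0.00232. The values of Zfp36l1, Btg1 and Btg2 each overlapped with those of the next gene in the order. In WT PD, Btg1 at 31.1 ± 1.46 FPKM (SD, n = 2) and Tob1 at 29.0 ± 4.49 (SD, n = 2) led with overlapping values. Btg4 came next at 13.9, then Zcchc11 at 12.01, Zcchc6 at 5.99, Tob2 at 5.03, Zfp36l2 at 0.769, Zfp36l1 at 0.221, Btg2 at 0.126 and Btg3 at 0.00191, each apart from its neighbour. Zfp36l2, Zfp36l1 and Btg2, among the first 6 in WT LZ, were thus among the last 4 in WT PD.

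At LZ, the Cnot4-null libraries were led by Tob1 at 51.4 FPKM, with Zfp36l2 at 41.7, Zcchc11 at 40.8, Btg1 at 27.0, Zfp36l1 at 23.3, Tob2 at 18.2, Btg2 at 15.1, Zcchc6 at 6.99, Btg3 at 2.73 and Btg4 at 1.03. Zfp36l2 overlapped with Zcchc11, Btg1 with Zfp36l1, and Btg3, whose mean rests on 1 library, with both Zcchc6 and Btg4. In Cnot4-null PD the first place was held by Zfp36l1 at 46.8 ± 38.2 FPKM (SD, n = 2), a mean of values far apart. Each gene in that group overlapped with the next in the order except Zcchc6 and Btg3, so the order within it is not resolved.

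**Figure D2:**
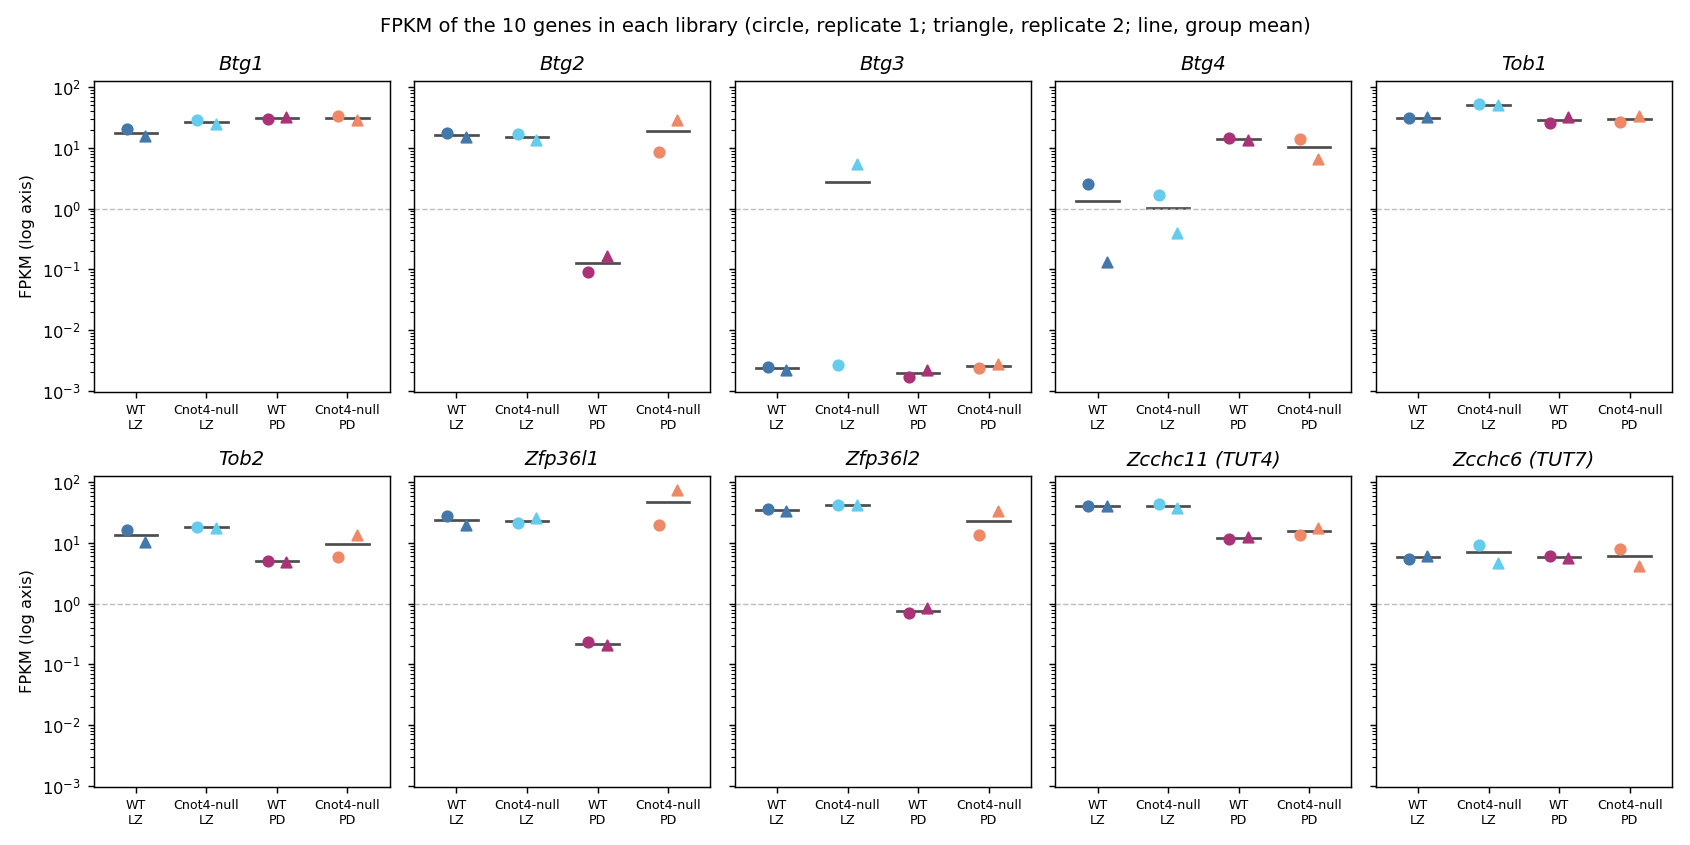
FPKM (log axis) of each of the 10 genes in the 8 libraries, with circles for replicate 1, triangles for replicate 2 and lines for group means. Btg2, Zfp36l1 and Zfp36l2 lie below 1 FPKM (dashed line) in both WT PD libraries and above 8 FPKM in the other 6.

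All 10 genes passed the filter of FPKM above 1 in at least 1 library, which kept 15899 genes, although Btg3 passed through a single library. The tests used limma on log2(FPKM + 1) with Benjamini-Hochberg adjustment over all genes kept, and a gene is said to rise or fall where its adjusted p was under 0.05. Fold changes on this scale understate those of genes with low values. Between the stages in WT, 7 of the 10 genes were called, 2 higher and 5 lower at PD, where 57.8% of all genes were called, 21.6% higher and 36.2% lower. In Cnot4-null, the stages differed for 3 of the 10 genes, 1 higher and 2 lower, against 46.0% of all genes, 27.8% higher and 18.2% lower. Between the genotypes at PD, 3 of the 10 were called, all higher in Cnot4-null, where 53.1% of all genes were called, 41.6% higher and 11.5% lower. The interaction of genotype and stage called the same 3, all with a positive sign, against 30.0% of all genes, 26.0% positive and 3.97% negative. At LZ, limma called none of the 10 between the genotypes, and 0.0943% of all genes, 0.0692% higher and 0.0252% lower. In none of these comparisons did the count of the 10 stand far above the share among all genes, and between the genotypes at PD and the stages in Cnot4-null it was below it.

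The scale of the libraries bears on these counts. On the log2 scale, the median over all genes was -0.32 between the stages in WT, 0.19 in Cnot4-null, 0 between the genotypes at LZ and 0.66 at PD. Quantile normalization moved the median change at PD to -0.10, and scaling the libraries to a common median FPKM moved it to -0.21. Of all genes called at PD, 78.3% were higher in Cnot4-null as deposited, 41.0% after quantile normalization and 36.9% after rescaling. Scaling to a common median called 8 of the 10 genes at PD, the same 3 higher and 5 lower. It called 10100 of all 15899 genes there, 3724 higher and 6376 lower. Changes are therefore also given relative to the median of all genes, and the genotype comparisons and stage comparisons share their libraries, so that their values are set side by side only.

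**Figure D3:**
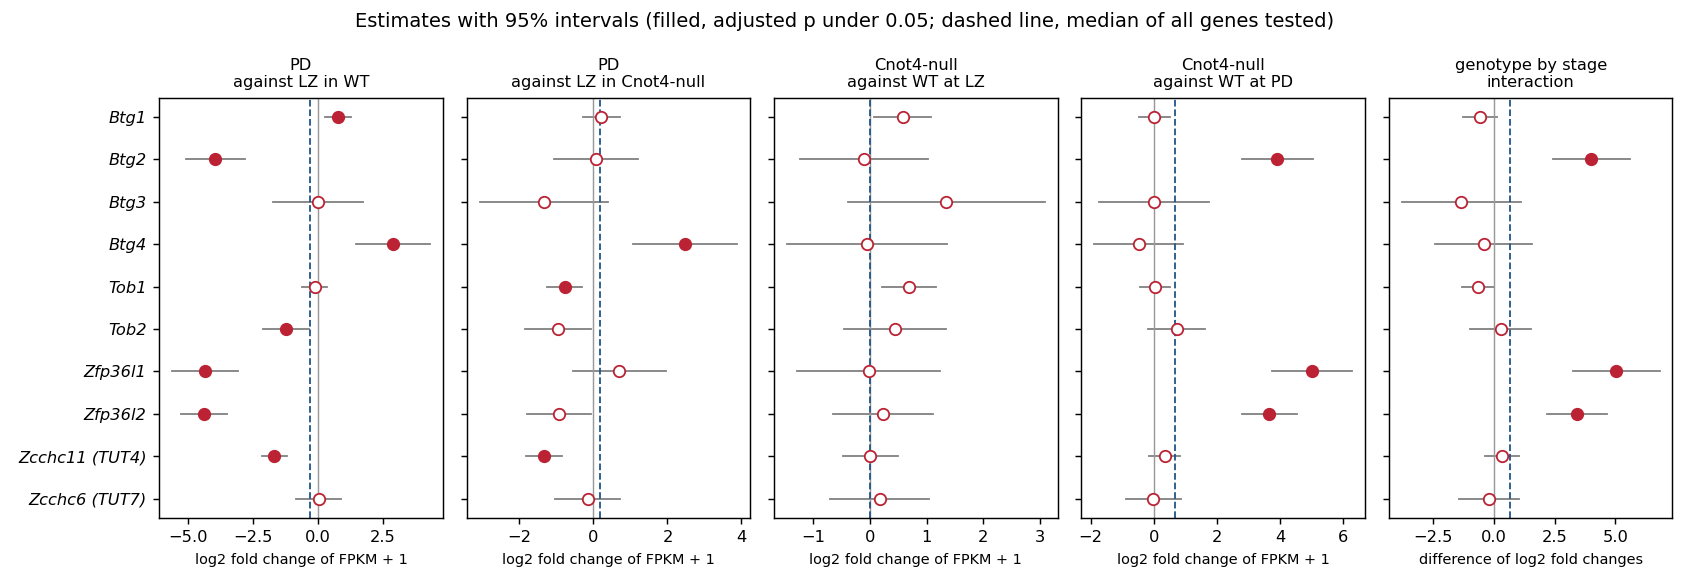
Log2 fold changes of FPKM + 1 with 95% intervals for the 10 genes in 4 comparisons, and the difference between the genotype effects at PD and LZ in the last panel. Filled points mark adjusted p under 0.05. Btg2, Zfp36l1 and Zfp36l2 are the only filled points at PD, at 3.91, 5.01 and 3.66, right of the median of all genes (dashed line, 0.66).

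Among the BTG genes, Btg1 and Btg2, antiproliferative genes of closely related sequence, went in opposite directions between the stages in WT. Btg2, an early target of p53 that lies on the minus strand at chr1:135971747-135975697 of mm9, was at 17.8 and 14.9 FPKM in WT and 16.8 and 13.4 in Cnot4-null at LZ, and 0.0890 and 0.163 in WT and 8.68 and 28.6 in Cnot4-null at PD. Both WT PD values were near 0, and every other value was above 8 FPKM. Between the stages in WT it fell, with a log2 fold change of -3.94 (limma, standard error 0.48, adjusted p = 0.000352) and -3.62 relative to the median gene. In Cnot4-null the stages overlapped, with a change of 0.080 (adjusted p = 0.905). That value is set by single libraries. Without Cnot4-null PD replicate 1 it was 0.89 (adjusted p = 0.0314) and without replicate 2 it was -0.73 (adjusted p = 0.0540). At PD, Btg2 rose by 3.91 in Cnot4-null against WT (standard error 0.48, adjusted p = 0.000842), and by 3.25 relative to the median gene. A pseudocount of 0.1 in place of 1 gave 6.15. With 1 Cnot4-null PD library left out the change was 4.72 or 3.10, and both remained called. At LZ the difference between the genotypes was -0.11 (adjusted p = 1.00), and the interaction was 4.02 (standard error 0.68, adjusted p = 0.00674).

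Btg1, on the plus strand at chr10:96079635-96085447 of mm9, was listed at 20.3 and 15.4 FPKM in WT and 29.0 and 25.0 in Cnot4-null at LZ, and 30.0 and 32.1 in WT and 33.9 and 29.0 in Cnot4-null at PD. The WT LZ values were the lowest of the 4 groups, and the others lay close together. The rise in WT was 0.78 (limma, standard error 0.21, adjusted p = 0.0160) and 1.09 relative to the median gene. It was no longer called without WT LZ replicate 2 (adjusted p = 0.0882), WT PD replicate 1 (0.0692) or WT PD replicate 2 (0.0974). In Cnot4-null the change was 0.21 (adjusted p = 0.437). Between the genotypes, Btg1 differed by 0.58 at LZ (unadjusted p = 0.0290 by limma, adjusted p = 0.731) with both Cnot4-null values above both WT values, and by 0.015 at PD (adjusted p = 0.960), which was -1.38 after scaling to a common median (adjusted p = 0.00137). The interaction was -0.56 (adjusted p = 0.188), and that scaling called it at -2.001 (adjusted p = 0.00394).

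Btg4, a germ cell gene whose product serves in the clearance of maternal mRNAs in oocytes and early embryos, lies on the plus strand at chr9:50924106-50927980 of mm9. Its FPKM was 2.53 and 0.133 in WT and 1.65 and 0.399 in Cnot4-null at LZ, and 14.3 and 13.5 in WT and 14.0 and 6.66 in Cnot4-null at PD. All PD values exceeded all LZ values. It rose from LZ to PD in WT by 2.90 (limma, standard error 0.60, adjusted p = 0.00452) and in Cnot4-null by 2.48 (standard error 0.60, adjusted p = 0.0135). The rise in WT ran from 2.08 to 3.72 with 1 library left out, and was 4.16 with a pseudocount of 0.1. The call in Cnot4-null was lost without Cnot4-null LZ replicate 2 (adjusted p = 0.0893), without Cnot4-null PD replicate 1 (0.0928) and without the filter on low values (0.0602). Between the genotypes the values overlapped at both stages, with a difference of -0.47 at PD (adjusted p = 0.518) that became -1.80 after rescaling (adjusted p = 0.0313).

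Btg3 could not be assessed. It was listed between 0.00164 and 0.00270 FPKM in 7 libraries and at 5.45 FPKM in Cnot4-null LZ replicate 2, and its fold changes carried standard errors of 0.74, and its interaction 1.05. A gene model on another chromosome, Gm7334 at chr17:50837852-50839205 of mm9, is nearly identical to its transcript. Of the 1365 stretches of 50 nt in the longest coding transcript of Btg3, 1080 occur both in the Btg3 gene (chr16:78360105-78377437, minus strand) and in Gm7334, 187 only in Gm7334 and 98 only in the Btg3 gene. That transcript has 5 exons, and that of Gm7334 has 1. A stretch across an exon junction is not found as 1 block in the Btg3 gene. The 187 are part of the Btg3 transcript and so are not particular to Gm7334. Reads of 50 nt from either source cannot be separated over most of the transcript. Gm7334, looked up after the Btg3 values had been seen, was listed at 266 and 228 FPKM in WT and 247 and 202 in Cnot4-null at LZ, and 3.66 and 6.20 in WT and 41.0 and 53.7 in Cnot4-null at PD. How much of this belongs to Btg3 was not determined.

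The other 9 genes were less affected by shared sequence. For Btg2, Btg4, Tob1, Tob2 and Zcchc11 no stretch of 50 nt found in the genome occurred more than once. The share found more than once was 15.1% for Btg1, 17.9% for Zfp36l1, 21.6% for Zfp36l2 and 1.02% for Zcchc6.

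Of the TOB genes, Tob1 had the narrowest range of the 10 genes, with its highest value 2.02 times its lowest. Tob1, on the plus strand at chr11:94072768-94076809 of mm9, was at 30.9 and 32.1 FPKM in WT and 52.0 and 50.8 in Cnot4-null at LZ, and 25.8 and 32.1 in WT and 26.5 and 33.1 in Cnot4-null at PD. The Cnot4-null LZ pair stood above the 6 other libraries. From LZ to PD it fell in Cnot4-null by 0.78 on the log2 scale (limma, standard error 0.20, adjusted p = 0.0180), whereas the change in WT was -0.12 (adjusted p = 0.654). The first call ended without Cnot4-null LZ replicate 1 (adjusted p = 0.0802) or replicate 2 (0.0712) and with only the libraries compared (0.0755). The difference between the stage effects, the interaction, was -0.65 (standard error 0.29, adjusted p = 0.123), and it was called at -0.81 without Cnot4-null PD replicate 2 (adjusted p = 0.0472) and at -2.09 after scaling to a common median (adjusted p = 0.00344). That scaling also called a rise of 0.74 between the stages in WT (adjusted p = 0.0143). At LZ the genotypes differed by 0.69 (unadjusted p = 0.0108 by limma, adjusted p = 0.619), and at PD by 0.040 (adjusted p = 0.880), or -1.35 after that scaling (adjusted p = 0.00113).

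Tob2, on the minus strand at chr15:81678700-81688756 of mm9, had 16.5 and 10.4 FPKM in WT and 18.3 and 18.02 in Cnot4-null at LZ, and 5.14 and 4.92 in WT and 5.81 and 13.4 in Cnot4-null at PD. Its WT PD values were the lowest, and Cnot4-null PD replicate 2 lay within the range of LZ. In WT it fell from LZ to PD by 1.23 (limma, standard error 0.38, adjusted p = 0.0267), a call that 8 of the 18 alternatives did not make, quantile normalization (adjusted p = 0.267) and rescaling (0.326) among them. In Cnot4-null the change was -0.95 (adjusted p = 0.0775), and it was called at -1.49 without Cnot4-null PD replicate 2 (adjusted p = 0.0124), at -1.38 after quantile normalization (0.0368) and at -1.47 after scaling to a common median (0.0121). At PD the genotypes differed by 0.72 (adjusted p = 0.146), which was 0.055 relative to the median gene. Without Cnot4-null PD replicate 1 that difference was 1.26 (adjusted p = 0.0174).

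Zfp36l1 and Zfp36l2 had the largest falls of the 10 genes between the stages in WT with a pseudocount of 1. With 0.1, the log2 fold changes were -6.21 for Zfp36l1, -6.20 for Btg2 and -5.36 for Zfp36l2. Zfp36l2, a zinc finger gene on the minus strand at chr17:84583271-84587287 of mm9, was listed at 37.0 and 34.0 FPKM in WT and 41.8 and 41.6 in Cnot4-null at LZ, and 0.693 and 0.846 in WT and 13.6 and 33.2 in Cnot4-null at PD. The LZ values lay close together in both genotypes, and the WT PD values were the only ones below 1 FPKM. It fell between the stages in WT by 4.37 (limma, standard error 0.37, adjusted p = 7.83e-05). In Cnot4-null the change was -0.93 (adjusted p = 0.0779), with both PD values below both LZ values, and it was called at -1.55 without Cnot4-null PD replicate 2 (adjusted p = 0.00237) and at -1.49 after scaling to a common median (0.0108). At PD it rose by 3.66 in Cnot4-null against WT (standard error 0.37, adjusted p = 0.000410), and by 2.998 relative to the median gene. This rise ran from 3.05 to 4.28 with 1 library left out, and was 4.63 with a pseudocount of 0.1. The interaction was 3.43 (standard error 0.53, adjusted p = 0.00473), and at LZ the genotypes differed by 0.23 (adjusted p = 1.00).

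Zfp36l1, its close relative on the minus strand at chr12:81208747-81214000 of mm9, had 27.9 and 20.1 FPKM in WT and 21.2 and 25.4 in Cnot4-null at LZ, and 0.230 and 0.211 in WT and 19.8 and 73.8 in Cnot4-null at PD. Replicate 2 of Cnot4-null PD was the highest of the 8 libraries, and replicate 1 was close to the LZ values. Between the stages in WT it fell by 4.34 on the log2 scale (limma, standard error 0.54, adjusted p = 0.000373). In Cnot4-null the change between the stages was 0.70 (adjusted p = 0.312), 1.63 without Cnot4-null PD replicate 1 (adjusted p = 0.00807) and -0.22 without replicate 2 (adjusted p = 0.507). At PD, Zfp36l1 rose in Cnot4-null by 5.01 (standard error 0.54, adjusted p = 0.000497), and by 4.35 relative to the median gene. A pseudocount of 0.1 in place of 1 gave 6.90. The change was 5.94 without Cnot4-null PD replicate 1 and 4.09 without replicate 2. The interaction was 5.04 (standard error 0.76, adjusted p = 0.00444).

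Immediate early genes are induced within minutes of a stimulus or of cell handling. Btg2 and the ZFP36 family are themselves known to respond to such stimuli. The 18 immediate early genes summed to 78.6 and 60.3 FPKM in WT and 91.3 and 102 in Cnot4-null at LZ, and 10.6 and 5.57 in WT and 236 and 920 in Cnot4-null at PD. Fos, the most abundant in Cnot4-null PD, was at 64.9 and 227 FPKM there. The list, like Btg2, Zfp36l1 and Zfp36l2, was lowest in WT PD and higher in replicate 2 than in replicate 1 of Cnot4-null PD. From LZ to PD in Cnot4-null, 9 of the 17 rose and 8 were not called (27.8% of all genes rose). Btg2, Zfp36l1 and Zfp36l2 changed by 0.080, 0.70 and -0.93 there, and none was called. At PD, 15 of the 17 genes tested were higher in Cnot4-null and 0 lower (41.6% and 11.5% of all genes), with a median log2 fold change of 3.91 against 0.66 over all genes. Of the 17, Atf3, Fosb and Myc passed the filter only through Cnot4-null PD, so their inclusion is not independent of high values there. The share among all genes has the same limit, as 14180 genes were kept without these libraries and 15899 with them. The related adaptor gene Zfp36 was at 14.2 and 139 FPKM in Cnot4-null PD and at 0.246 and 0.301 in WT PD. The Leydig, myoid and macrophage lists were also higher in replicate 2 than in replicate 1. So were the spermatogonia markers, which like Btg2, Zfp36l1 and Zfp36l2 were lowest in WT PD. From LZ to PD in Cnot4-null, 1 of these 8 markers was called higher and 1 lower (27.8% and 18.2% of all genes). Led by Uchl1 at LZ and in Cnot4-null PD, they summed to 729 and 687 FPKM in WT LZ and to 68.9 and 83.8 in WT PD, where 6 of 8 were called lower than at LZ and 1, Id4, higher (36.2% and 21.6% of all genes). At PD they reached 360 and 468 FPKM in Cnot4-null, with 7 of 8 called higher (41.6% of all genes) and a median of 3.47. The spermatid markers were also lowest in WT PD, and 8 of 8 were called higher in Cnot4-null at PD (41.6% of all genes). Their replicates ran the other way, at 16138 FPKM in replicate 1 and 7318 in replicate 2 of Cnot4-null PD. Of the Sertoli cell markers, 6 of 9 were called lower and 1 higher at PD in WT (36.2% and 21.6% of all genes), and 5 were higher and 1 lower in Cnot4-null at PD (41.6% and 11.5% of all genes). Among these markers, Gata4 and Gata1 passed the filter only through Cnot4-null PD. The libraries came from cells sorted by DNA staining. The part of handling, other stimuli or these other cell types in the levels of Btg2, Zfp36l1 and Zfp36l2 was not tested.

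Promoters are shown for Btg2 and Zfp36l1, which moved together, and for Btg1 and Btg4, which rose in WT where those fell. RefSeq promoters on GRCm38.p6, reaching from 250 bases before to 50 after the start, were matched for 9 of the 10 genes, all but Zfp36l2. Motifs were searched on both strands, and matches are in capitals. Of 32851 promoters, 13.6% hold a TATA box (TATAAA), 1.79% a CRE, the site of CREB and ATF factors (TGACGTCA), 35.7% a GC box (GGGCGG), 7.15% an E-box (CACGTG) and 35.0% a MYB site (CNGTTG).
Btg2, chr1:134079106-134079405, minus strand: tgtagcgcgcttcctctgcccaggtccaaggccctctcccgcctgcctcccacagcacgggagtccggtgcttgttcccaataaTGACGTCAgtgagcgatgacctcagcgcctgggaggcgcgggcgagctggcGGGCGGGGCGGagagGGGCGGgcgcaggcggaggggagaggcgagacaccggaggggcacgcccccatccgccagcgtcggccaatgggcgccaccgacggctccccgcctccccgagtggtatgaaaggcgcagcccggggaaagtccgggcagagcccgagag
Zfp36l1, chr12:80112964-80113263, minus strand: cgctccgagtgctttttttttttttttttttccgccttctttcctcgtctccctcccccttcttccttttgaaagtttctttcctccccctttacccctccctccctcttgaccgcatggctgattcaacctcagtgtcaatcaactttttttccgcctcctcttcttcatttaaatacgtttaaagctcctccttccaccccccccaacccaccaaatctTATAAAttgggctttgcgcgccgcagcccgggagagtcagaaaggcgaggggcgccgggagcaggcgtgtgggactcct
Btg1, chr10:96616751-96617050, plus strand: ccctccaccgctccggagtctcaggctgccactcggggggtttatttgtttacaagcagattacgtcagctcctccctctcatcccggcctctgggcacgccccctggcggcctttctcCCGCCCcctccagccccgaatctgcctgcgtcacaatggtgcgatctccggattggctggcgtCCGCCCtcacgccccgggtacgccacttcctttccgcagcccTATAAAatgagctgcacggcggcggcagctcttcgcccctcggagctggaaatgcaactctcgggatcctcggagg
Btg4, chr9:51115751-51116050, plus strand: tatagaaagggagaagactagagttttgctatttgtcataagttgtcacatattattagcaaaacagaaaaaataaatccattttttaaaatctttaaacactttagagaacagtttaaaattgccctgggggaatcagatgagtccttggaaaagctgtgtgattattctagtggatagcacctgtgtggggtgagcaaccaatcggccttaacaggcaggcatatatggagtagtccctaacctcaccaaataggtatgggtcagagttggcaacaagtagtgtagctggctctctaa

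The Btg2 window holds 1 CRE and 3 GC boxes, that of Zfp36l1 1 TATA box, and that of Btg1 1 TATA box and 2 GC boxes. The Btg4 window holds none of the 5 and has 39.0% G and C, against 72.0% for Btg2, 64.7% for Btg1, 52.0% for Zfp36l1 and a median of 52.7% over all promoters. The letters are descriptions of these windows and not binding sites.

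Of the uridylyltransferases, Zcchc11 fell between the stages, and Zcchc6 was called in none of the comparisons of the values as deposited. Zcchc11, which encodes TUT4 and lies on the plus strand at chr4:108132031-108232026 of mm9, was at 40.7 and 40.4 FPKM in WT and 43.9 and 37.8 in Cnot4-null at LZ, and 11.5 and 12.5 in WT and 13.5 and 17.6 in Cnot4-null at PD. All LZ values were above all PD values. The log2 fold change from LZ to PD was -1.68 in WT (limma, standard error 0.21, adjusted p = 0.000354) and -1.34 in Cnot4-null (standard error 0.21, adjusted p = 0.00230), and the fall was called under every alternative in both genotypes. Its size moved with the scale, to -0.84 in WT and -1.90 in Cnot4-null after scaling to a common median. Relative to the median gene it was -1.36 and -1.53. The difference between the changes as deposited was 0.33 (adjusted p = 0.395, with a 95% interval from -0.35 to 1.02), and after scaling to a common median it was called with the opposite sign, at -1.05 (adjusted p = 0.0177). At PD the genotypes differed by 0.34 (adjusted p = 0.194) and by -0.32 relative to the median gene. Without Cnot4-null PD replicate 1 the difference was called, at 0.52 (adjusted p = 0.0331). Rescaling to the same median gave -1.01 (adjusted p = 0.00310), so the sign at PD depends on the scale.

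Zcchc6, which encodes TUT7 and lies on the minus strand at chr13:59873240-59924508 of mm9, ranged from 4.21 to 9.21 FPKM over the 8 libraries with a median of 5.94. It was at 5.56 and 6.11 FPKM in WT and 9.21 and 4.76 in Cnot4-null at LZ, and 6.20 and 5.77 in WT and 8.07 and 4.21 in Cnot4-null at PD. The groups overlapped in all 4 comparisons, and the Cnot4-null pairs were wider than the WT pairs. Its changes lay between -0.16 and 0.17 as deposited (limma, lowest adjusted p = 0.746). After scaling to a common median it was called lower in Cnot4-null at PD, at -1.26 (adjusted p = 0.0156), and its interaction was called at -1.46 (adjusted p = 0.0451). The 95% interval for PD against LZ in WT ran from -0.84 to 0.90, which leaves room for changes of some size.

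Ratios within a library are not moved by its scaling, apart from the pseudocount, and are given here without a test. The log2 ratio of Zcchc11 to Zcchc6 (FPKM + 1) was 2.67 and 2.54 in WT and 2.14 and 2.75 in Cnot4-null at LZ, and 0.80 and 0.99 in WT and 0.68 and 1.84 in Cnot4-null at PD. Zcchc11 thus made up 88.0 and 86.9% of the summed FPKM of the pair in WT LZ and 65.0 and 68.4% in WT PD. Every LZ library had a higher ratio than every PD library. The sum of the pair went from 46.3 and 46.5 FPKM at LZ to 17.7 and 18.3 at PD in WT, and from 53.1 and 42.5 to 21.6 and 21.8 in Cnot4-null.

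For Zfp36l2 to Zfp36l1 the log2 ratio was 0.40 and 0.73 in WT and 0.94 and 0.69 in Cnot4-null at LZ, and 0.46 and 0.61 in WT and -0.51 and -1.13 in Cnot4-null at PD. In WT PD, where both genes are under 1 FPKM, the pseudocount sets the value. With 0.1 in its place the log2 ratio there was 1.26 and 1.60, and the plain ratio of FPKM was 3.01 and 4.01, against 1.33 to 1.97 at LZ. Zfp36l2 exceeded Zfp36l1 in 6 libraries, and the order was turned in both libraries of Cnot4-null PD. The pair summed to 64.8 and 54.2 FPKM in WT and 63.0 and 67.0 in Cnot4-null at LZ, and 0.923 and 1.06 in WT and 33.4 and 107 in Cnot4-null at PD.

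The log2 ratio of Btg1 to Btg2, each as FPKM + 1, was 0.18 and 0.048 in WT and 0.75 and 0.85 in Cnot4-null at LZ, and 4.83 and 4.83 in WT and 1.85 and 0.020 in Cnot4-null at PD. Btg2 is under 1 FPKM in WT PD, so the pseudocount sets the value there. With 0.1 in its place the log2 ratio was 7.32 and 6.94, and the plain ratio of FPKM was 337 and 197. Tob1 exceeded Tob2 in all 8 libraries, with a log2 ratio of Tob2 to Tob1 from -0.86 in WT LZ replicate 1 to -2.48 in WT PD replicate 2. The summed FPKM of the 6 BTG and TOB genes moved less than its parts. It was 88.0 and 72.9 in WT and 118 and 113 in Cnot4-null at LZ, and 75.4 and 82.8 in WT and 88.9 and 111 in Cnot4-null at PD. In WT PD, Btg1 and Tob1 together with Btg4 held nearly all of it, Btg4 alone 19.0 and 16.3%.

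**Figure D4:**
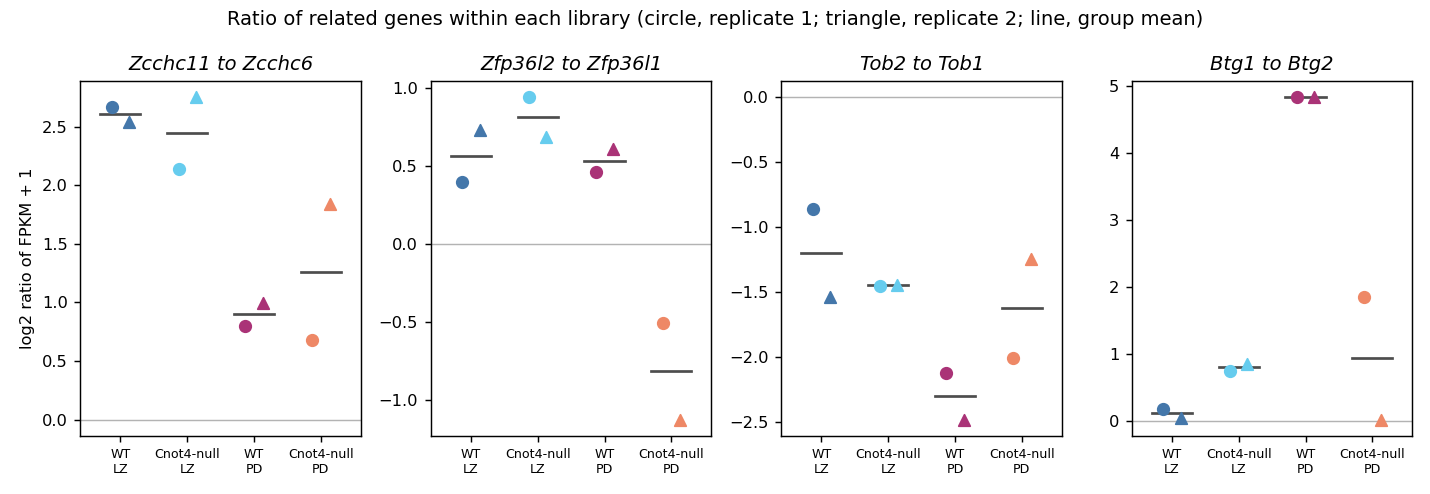
Log2 ratio of FPKM + 1 of 4 pairs of related genes in each library, with circles for replicate 1, triangles for replicate 2 and lines for group means. The ratio of Zcchc11 to Zcchc6 lies between 2.14 and 2.75 at LZ and between 0.68 and 1.84 at PD.

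The subunits of CCR4-NOT itself showed a mixed pattern. Of 11 tested, 2 rose and 6 fell from LZ to PD in WT, against 21.6% and 36.2% of all genes, with a median of -0.86 against -0.32. The scaffold gene Cnot1 rose the most, from 30.7 and 30.7 to 75.0 and 69.4 FPKM (log2 fold change 1.20, limma, adjusted p = 0.00177), and the deadenylase gene Cnot6l fell the most, with a log2 fold change of -2.49 (adjusted p = 0.000788). In Cnot4-null 1 rose, Cnot4, and 4 fell, Cnot6l again the most (27.8% and 18.2% of all genes). At PD, 4 were higher in Cnot4-null and 1 lower (41.6% and 11.5% of all genes). Cnot3 rose by 1.70 (adjusted p = 0.0138), and Cnot1, at 35.6 and 26.7 FPKM in Cnot4-null PD, fell by 1.20 (adjusted p = 0.00318). The interaction called 2 of the 11 (30.0% of all genes), Tnks1bp1, at 1.48 (adjusted p = 0.0347), and Cnot1, at -1.49 (adjusted p = 0.0108). At LZ, 0 of the 11 were called between the genotypes.

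Another list held genes of other RNA-binding proteins, not all of them adaptors of CCR4-NOT. Of the 20 genes tested, 0 rose and 12 fell between the stages in WT (21.6% and 36.2% of all genes), and 8 were not called. The median log2 fold change of the 20 was -1.54. Cpeb1, which controls cytoplasmic polyadenylation, fell the most, by 4.67 (limma, adjusted p = 2.81e-05). In Cnot4-null, 2 rose (27.8% of all genes), Zfp36 the most by 3.53 (adjusted p = 0.0161), and 9 fell (18.2% of all genes), Cpeb1 by 2.28 (adjusted p = 0.00117). At PD, 14 of the 20 were higher in Cnot4-null and 0 lower, against 41.6% and 11.5% of all genes, with a median of 1.12 against 0.66. Zfp36 rose the most, by 5.18 (adjusted p = 0.00329), and its interaction was 5.86 (adjusted p = 0.0153). The most abundant gene of the list in every library was Dazl, a germ cell RNA-binding protein gene.

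Among 9 other nucleotidyl transferases, 3 rose and 5 fell from LZ to PD in WT (21.6% and 36.2% of all genes). Papd4, which encodes the cytoplasmic poly(A) polymerase GLD2, fell the most, from 41.8 and 46.5 to 4.60 and 5.13 FPKM (log2 fold change -2.94, limma, adjusted p = 3.47e-05), and Fam46c, a gene of the TENT5 family of poly(A) polymerases, rose the most, by 1.77 (adjusted p = 0.000667). Both had the same sign in Cnot4-null, where 3 rose and 2 fell (27.8% and 18.2% of all genes), at -1.50 (adjusted p = 0.00133) and 2.33 (adjusted p = 0.000621). At PD, 5 were higher and 1 lower in Cnot4-null (41.6% and 11.5% of all genes). Fam46d rose by 2.62 (adjusted p = 0.000765) and Mtpap, the mitochondrial poly(A) polymerase gene, fell by 1.03 (adjusted p = 0.0135). The largest of 3 positive interactions among 9 (26.0% of all genes) was that of Fam46d at 1.81 (adjusted p = 0.0239).

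Of 26 genes for the decay of deadenylated and uridylated RNA, 4 rose and 16 fell from LZ to PD in WT, against 21.6% and 36.2% of all genes, with a median of -1.07. The exonuclease genes Dis3 and Dis3l were at opposite ends. Dis3 fell from 59.1 and 52.2 to 5.39 and 5.87 FPKM (log2 fold change -3.09, limma, adjusted p = 3.47e-05), and Dis3l rose from 1.43 and 4.76 to 118 and 112 FPKM (4.95, adjusted p = 0.000287). Dis3l2, whose product degrades uridylated RNA, was at 3.35 and 6.09 FPKM in WT LZ and 3.59 and 3.21 in WT PD. In Cnot4-null, 3 rose and 10 fell (27.8% and 18.2% of all genes), with Dis3l at 3.40 (adjusted p = 0.00339) and the exonuclease gene Eri1 at -1.88 (adjusted p = 0.00104). At PD, 11 of the 26 were higher in Cnot4-null and 0 lower, near the 41.6% of all genes that were higher, and their median of 0.31 was below that of all genes. Lin28a, which encodes a protein that recruits TUT4 and TUT7 to let-7 precursors, rose by 3.03 (adjusted p = 0.00102), with 5.35 and 12.9 FPKM in Cnot4-null PD against 0.235 and 0.0716 in WT PD. It also had the largest of 5 positive interactions among 26, a share below the 26.0% of all genes, at 1.76 (adjusted p = 0.0495).

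Of 17 immediate early genes, 5 were called lower and 0 higher between the stages in WT, where 36.2% of all genes were lower and 21.6% higher. Jund had the largest fall, at -3.44 (limma, adjusted p = 0.000255). In Cnot4-null, 9 rose and 0 fell, against 27.8% and 18.2% of all genes, Junb the most at 3.87 (adjusted p = 0.0127). Fos had the largest difference between the genotypes at PD, 6.17 (adjusted p = 0.000554), and the largest of 12 positive interactions among 17 (26.0% of all genes), 5.26 (adjusted p = 0.00877). Atf3, Fosb and Myc were among the 17 only through their values in Cnot4-null PD. Between the genotypes at LZ, limma called no gene of the 5 lists.

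**Figure D5:**
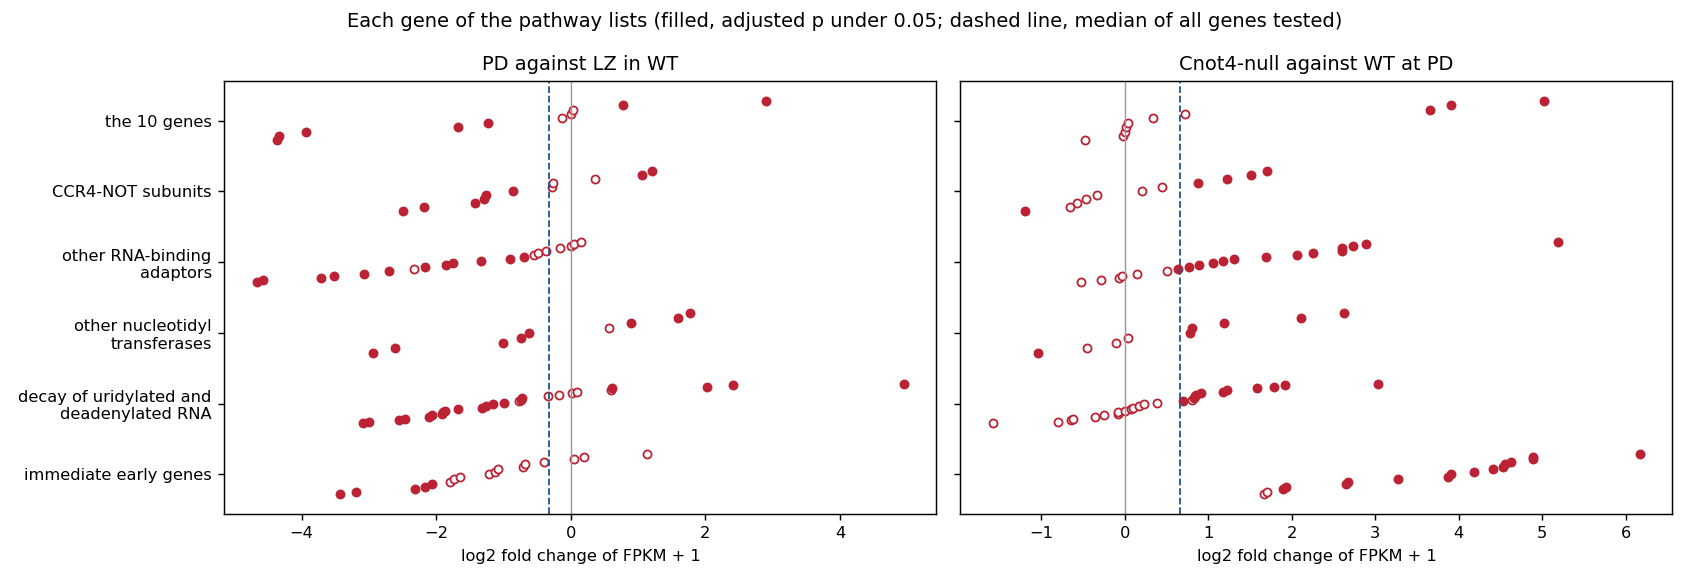
Log2 fold change of FPKM + 1 of each gene of the 10 and of 5 pathway lists, from LZ to PD in WT and between the genotypes at PD. Filled points mark adjusted p under 0.05 and the dashed line the median of all genes (-0.32 and 0.66). The immediate early genes lie right of that line at PD, with a median of 3.91.

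At LZ, where none of the 10 genes was called between the genotypes (limma, 0 of 10), Btg1 and Tob1 had unadjusted p under 0.05, as did 1013 of all 15899 genes. Both were higher in each Cnot4-null library than in each WT library. The Sertoli cell markers, of which Cst12 was the most abundant, summed to 175 and 164 FPKM in WT against 22.0 and 21.3 in Cnot4-null in these libraries. None of the 9 tested was called by limma, and their part in these values was not tested. Leydig cell markers did not separate the genotypes at LZ, at 17.2 and 9.89 FPKM in WT and 10.8 and 19.0 in Cnot4-null.

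The genes most like the 4 most abundant of the 10 were found by the smallest root mean square difference between centred log2(FPKM + 1) profiles over the 8 libraries, among genes with mean FPKM of at least 5. For Tob1, the closest were Ccnh at 0.11, Jmjd1c at 0.15 and Zfp936 at 0.15. The profile of Zcchc11 was nearest to Ppp6r3 at 0.090, Gtpbp10 at 0.092 and Pds5b at 0.10. Nearest to Btg1 were 2700007P21Rik at 0.11, Faf2 at 0.11 and Ranbp3 at 0.14. Zfp36l2 was followed by Zmym3 at 0.12, Huwe1 at 0.15 and Prep at 0.16. Likeness is measured within these 8 libraries and includes whatever sets the libraries of Cnot4-null PD apart.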

How the data were processed

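The values are FPKM as deposited by the authors, made with TopHat2 2.1.1 and Cufflinks 2.2.1, and the files hold no read counts. The methods describe Smart-Seq2 amplification, whereas the sample labels describe total RNA and a TruSeq library, and which was used was not determined. Genes above 1 FPKM in at least 1 library were kept (15899 of 23235), and values were taken as log2(FPKM + 1). Groups were compared in a single fit with limma 3.58.1 in R 4.3.3, using eBayes with trend, contrasts for stage within genotype and genotype within stage, and their interaction. P values were adjusted by Benjamini-Hochberg over the genes kept, and a gene was called at adjusted p under 0.05. With 2 libraries per group, the smallest p of an exact permutation test is 0.333, so none was run. The genes and the marker and pathway lists were chosen with earlier results of these data known. Genes of the lists are named where they had the largest called rise or fall, or the highest value, and Dis3l2 and the named markers by their known function. Alternatives covered the filter, the pseudocount, quantile normalization, a common median, no trend, only the libraries compared, replicate number as a block, and each library left out. Other steps ran in Python 3.11.15 with pandas 2.3.3, scipy 1.17.1, numpy 2.4.6 and, for the figures, matplotlib 3.10.9. Positions are from GENCODE on mm9.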

Additional observations from a re-analysis of the deposited data

Results flagged for a closer look

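The genotype effect differed between the stages for 3 of the 10 genes by the limma interaction test, and these are flagged for that reason. The share over all genes was 30.0%, so the count says nothing particular about the 10 genes. The interaction on the log2 scale was 4.02 for Btg2, 5.04 for Zfp36l1 and 3.43 for Zfp36l2. With 1 library left out it ran from 3.21 to 4.83, from 4.12 to 5.96 and from 2.82 to 4.05 in that order. With a pseudocount of 0.1 it was 6.27, 6.93 and 4.39. In each the WT PD libraries were low and the Cnot4-null PD libraries were high, and the latter also held Leydig, myoid and spermatid marker RNA. Immediate early genes were higher in Cnot4-null at PD for 15 of 17 (41.6% of all genes), with a median log2 fold change of 3.91, and 12 of 17 had a positive interaction (26.0% of all genes). Of the 17, Atf3, Fosb and Myc passed the filter only through Cnot4-null PD. Spermatogonia markers were also lowest in WT PD, with 472 to 729 FPKM at LZ, and at PD with 68.9 and 83.8 in WT against 360 and 468 in Cnot4-null. The part of these lists in the result was not tested.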

How the results depend on the processing

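Calls among the 10 genes were 7 between the stages in WT, 3 in Cnot4-null, 0 between the genotypes at LZ, 3 at PD and 3 for the interaction. Leaving out 1 library gave 5 to 7, 1 to 5, 0 to 0, 3 to 5 and 3 to 4 in that order, where the lone library of a group was assumed to vary like the other groups. In Cnot4-null it was 1 without LZ replicate 2 and 5 without PD replicate 2. At PD it was 5 without Cnot4-null PD replicate 1. Rescaling to the same median gave 5 in Cnot4-null, 8 at PD and 7 for the interaction, against 8512, 10100 and 7306 of all 15899 genes. The causes were not tested.

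All genes called numbered 9190, 7316, 15, 8449 and 4770 for the same comparisons. With 1 library left out these became 6945 to 10150, 4651 to 8238, 9 to 25, 4073 to 9932 and 1723 to 7944. With only the libraries compared they were 3955 in Cnot4-null and 4 at LZ, without a filter 31 at LZ, with mean FPKM of at least 5 they were 5219 at PD, and with the same median 7306 for the interaction. The share of calls that were higher was 37.4% between the stages in WT (quantile 46.1%, same median 54.7%), 60.5% in Cnot4-null (37.4%, 39.1%), 78.3% at PD (41.0%, 36.9%) and 86.8% for the interaction (44.1%, 29.8%). At LZ it was 73.3%, 73.3% and 78.6%.

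Replicate number as a block gave 9085, 7128, 16, 8298 and 4355 genes, and 7, 3, 0, 3 and 3 of the 10. Deviations of libraries of the same number correlated between -0.0651 and 0.194. Between the stages of a genotype the correlation was 0.0669 in WT and 0.194 in Cnot4-null. These values do not settle whether libraries share animals. The main fit did not treat the libraries as pairs.

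Signs turned mostly for genes that were not called. After quantile normalization, Btg3 was at 0.037 between the stages in WT and Btg2 at -0.14 in Cnot4-null. Zcchc11 was at -0.00038 at LZ. At PD, Btg1 was at -0.18, Btg3 at -0.24, Tob1 at -0.16, Tob2 at -0.28 and Zcchc11 at -0.27. The interactions were -0.75 for Tob2 and -0.27 for Zcchc11.

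With the same median, Btg3 was at 0.0017 and Tob1 at 0.74 (called) between the stages in WT, and Btg1 at -0.36 and Btg2 at -0.47 in Cnot4-null. Zfp36l1 was at 0.014 at LZ. At PD, Btg1 was at -1.38, Tob1 at -1.35 and Zcchc11 at -1.01, all called, Btg3 at -0.0026 and Tob2 at -0.54. The interactions were -1.02 for Tob2 and -1.05 for Zcchc11, the latter called. A pseudocount of 0.1 put Btg4 at 0.26 at LZ.

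With 1 library left out, the stage change in WT ran from -0.28 to 0.029 for Tob1 and from -0.026 to 0.091 for Zcchc6. In Cnot4-null it ran from -0.73 to 0.89 for Btg2, from -0.22 to 1.63 for Zfp36l1 and from -0.57 to 0.25 for Zcchc6. At LZ the genotype difference ran from -0.26 to 0.045 for Btg2, from -0.87 to 0.77 for Btg4, from -0.25 to 0.20 for Zfp36l1, from -0.10 to 0.11 for Zcchc11 and from -0.24 to 0.58 for Zcchc6.

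At PD the same ranges were -0.093 to 0.12 for Btg1, -0.96 to 0.011 for Btg4, -0.12 to 0.20 for Tob1 and -0.42 to 0.38 for Zcchc6. Those of the interaction were -1.24 to 0.40 for Btg4, -0.27 to 0.81 for Tob2 and -0.60 to 0.22 for Zcchc6.

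With a pseudocount of 0.1, the mean log2 ratio was 2.78 for Zcchc11 to Zcchc6 in WT LZ, 1.43 for Zfp36l2 to Zfp36l1 in WT PD, -1.50 for Tob2 to Tob1 in Cnot4-null LZ and 7.13 for Btg1 to Btg2 in WT PD.

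Chosen after seeing the data were a filter of FPKM above 1 in at least 2 libraries, and a fit without both Cnot4-null PD libraries. Btg3 has no value with mean FPKM of at least 5, with FPKM above 1 in at least 2 libraries, or without Cnot4-null LZ replicate 2. The interaction has none with only the libraries compared.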
